A study of Mus musculus with 10 samples.

Results

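The 10 keratin genes that mark the layers of the urothelium, from the basal cells to the umbrella cells, were followed in RNA-seq libraries of mouse bladder. They were taken by symbol from the 55536 genes counted: Krt5, Krt14 and Krt15 for the basal layer, Krt4 and Krt13 for the intermediate layer, the simple-epithelium keratins Krt7, Krt8, Krt18 and Krt19, and Krt20 for the umbrella cells. The measured level was not used to choose them, but they were chosen with earlier results of these data known. The study asked what the loss of either of the secreted leucine-rich proteoglycans osteomodulin (OMD) and PRELP does to the bladder. The libraries deposited are of C57BL/6 mice in 3 groups, 4 of wild type (WT), 3 of OMD-/- and 3 of PRELP-/-. The study's text gives other group sizes for its RNA-seq, and the groups here follow the sample records. Both knockouts are constitutive, with a β-galactosidase cassette in place of coding exons, so the gene is absent from every cell type and not from the urothelium alone. The sample records describe homogenised bladder tissue, whereas the study's text speaks of isolated epithelia. The age and sex of the animals were not given in the sources used here, and although the study's text counts mice, no label ties a library to an animal, so that p-values measure only the spread between these libraries, which may be technical in part.

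Keratins are the intermediate filament proteins of epithelial cells, and a filament needs a type II keratin (here Krt4, Krt5, Krt7 and Krt8) paired with a type I keratin (Krt13, Krt14, Krt15, Krt18, Krt19 and Krt20). In the urothelium the pair changes with height: basal cells, which include progenitors, rest on the basement membrane with Krt5 filaments, cells above them carry the simple keratins, and the large umbrella cells at the lumen add Krt20 beneath their uroplakin plaques. Krt14 is low in resting urothelium and is known to appear in basal progenitors during regeneration.

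The libraries held 20391437 to 46269079 reads assigned to genes. Prelp was at 215 to 317 CPM (reads of the gene relative to all reads of the library, after scaling between libraries) in WT and at 1.84 to 4.20 in PRELP-/-. Omd counts were 0, 1, 8 and 12 in WT and 0 in each OMD-/- library, too few in WT to check the labels. In 4 pairs the libraries were closer to each other than in any other pair, namely replicates 2 and 3 of OMD-/-, 2 and 3 of PRELP-/-, and in WT 3 with 4 and 1 with 2. They still differed by more than counting noise (3.23 to 12.7 times it, as mean chi-square per gene) and were kept as separate replicates. OMD-/- replicate 1 was closer to PRELP-/- replicates 2 and 3 (13.1 and 17.5) than to OMD-/- replicates 2 and 3 (29.9 and 27.2), although its Prelp level of 772 CPM was that of its own group. PRELP-/- replicate 1 was far from every library (213 or more). Which keratins passed is given with and without either of these libraries. Y chromosome genes summed to 179 and 211 CPM in WT 2 and 1 and to 1.18 and 1.60 in WT 4 and 3, and the knockout libraries lay between 0.902 and 98.2. The X chromosome gene Xist counted 129 and 107 reads in WT 2 and 1, 27694 and 23019 in WT 4 and 3, and 7 to 2094 in the knockout libraries. Smooth muscle markers (10 genes, all above 3 counts in every group) summed to 338 and 356 CPM in WT 2 and 1, to 1227 and 1393 in WT 4 and 3, to 421 to 846 in OMD-/- and to 258 to 275 in PRELP-/-. Fibroblast markers (10 genes) summed to 8310 to 9510 CPM in WT, 17694 to 21582 in OMD-/- and 10036 to 19612 in PRELP-/-, and leukocyte markers (10 genes) to 763 to 905, 1106 to 1993 and 904 to 1161. The collagen genes Col1a1, Col1a2 and Col3a1 made up most of the fibroblast sum in each group. Of the 10 fibroblast genes, 8 had a higher mean in OMD-/- than in WT, and 7 did in PRELP-/-. Dpt and Postn were lower than WT in both knockouts, and Lum was lower in PRELP-/-. The part of these differences in the keratin results was not tested, and fewer urothelial cells cannot be told apart from less RNA per cell in a bulk sample.

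Levels between keratins were compared per length, as RPKM, which is the scaled CPM divided by the length of the exons in kilobases. In WT, Krt18 stood highest at 1095 ± 41.7 RPKM (SD, n = 4). Krt15 followed at 803 ± 78.1, Krt19 at 565 ± 67.4, Krt8 at 459 ± 28.3, Krt5 at 434 ± 80.1 and Krt7 at 280 ± 4.67 RPKM. Krt4 stood at 137 ± 7.28 and Krt20 at 113 ± 5.56 RPKM. The 4 WT libraries of each keratin were all above those of the next in this order, except that Krt8 and Krt5 overlapped. Krt7 would stand at 482 ± 8.04 RPKM, level with Krt8, if divided by its principal transcript of 4094 bases instead of the 7049 bases of all its annotated exons. Together the 10 genes took 0.887% to 0.936% of all WT counts.

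Krt13 and Krt14 were close to absent. Krt13, the usual type I partner of Krt4, gave 33, 9, 17 and 14 reads in WT replicates 1 to 4, which is 0.333 ± 0.0839 RPKM, so that Krt4 stood 318 to 669.5 times higher per length in the same libraries. Krt14, the usual partner of Krt5, gave 18, 7, 12 and 13 reads, or 0.252 ± 0.0745 RPKM, and Krt5 stood 1153 to 2891 times higher. The type I keratin that was abundant beside Krt5 was Krt15, at 1.71 to 2.06 times the level of Krt5 per length in WT. No 50-base word of the principal Krt13 transcript, the only kind searched for each keratin, occurs in another gene. For Krt14, 14.4% of such words occur in Krt16 or Krt17, and both of those genes were at 0 reads in every library, which allows up to 3 counts each. For Krt8, 26.9% occur in the pseudogene Krt8-ps, and for Krt5 8.52% in Krt6a, Krt6b or pseudogenes. How reads with several matches were counted was not given in the sources used here. Krt7 shares 1.09% of its exon bases with the antisense gene Gm671, which was at 1.09 CPM.

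**Figure D1:**
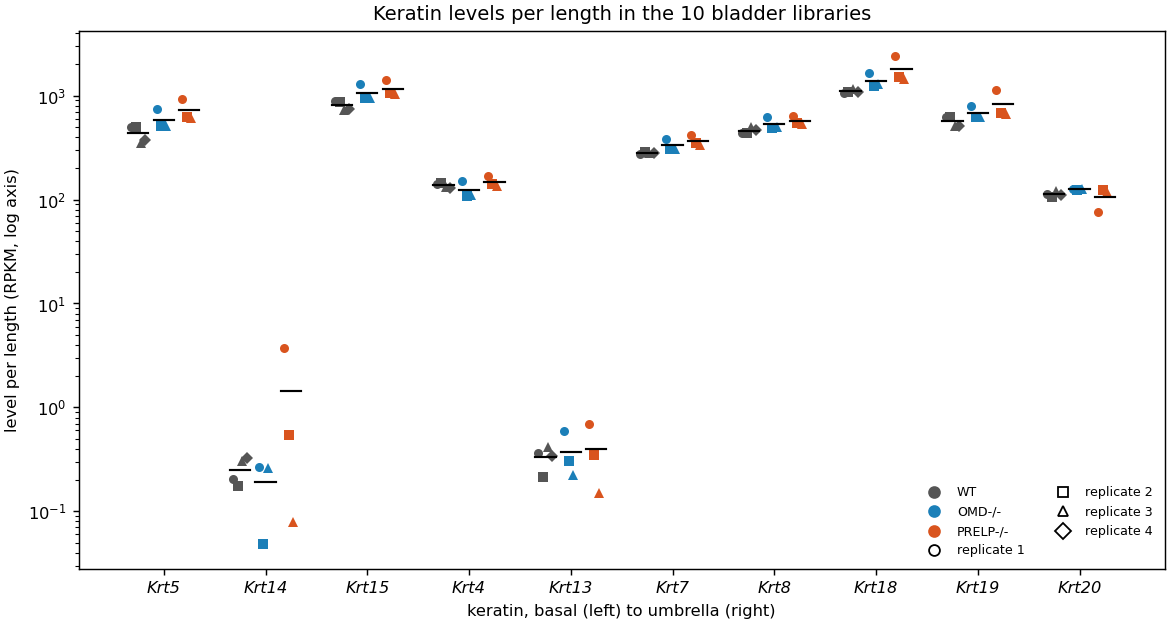
Level of each keratin per length (RPKM, log axis) in the 10 libraries, coloured by group, with the replicate number as the symbol and the group mean as a black line. Krt18 was highest in every group, and Krt13 and Krt14 lay at or below 3.72 RPKM in all libraries.

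The genes sit in 2 clusters. The type II genes and Krt18 lie on chromosome 15 (GRCm38), among them Krt5 at chr15:101707070-101712898, and the other type I genes on chromosome 11, from Krt20 at chr11:99428403-99438150 to Krt14 at chr11:100203162-100207548. Krt8 (chr15:101996698-102004482, minus strand) and Krt18 (chr15:102028180-102032027, plus strand), which form the filaments of simple epithelia together, are neighbours read in opposite directions. RefSeq promoter windows (GRCm38.p6, 250 bases before to 50 after the start) were matched for 7 of the 10 genes: Krt5, Krt14, Krt13, Krt7, Krt8, Krt18 and Krt20. Krt15, Krt4 and Krt19 have no entry. The Krt14 (chr11:100205981-100206280) and Krt7 (chr15:101412153-101412452) windows lie inside their genes as GENCODE places them, past the annotated start, so they are not windows of that start. The Krt8 and Krt18 windows hold the GENCODE start, but the RefSeq start they are built on lies inside the annotated gene. The windows of a basal, a paired simple and the umbrella keratin are shown because the results below turn on these genes, with TATAAA and ATAAAA in capitals, a sequence of the TATA type that can place the start of transcription:
Krt5, chr15:101712856-101713155, minus strand: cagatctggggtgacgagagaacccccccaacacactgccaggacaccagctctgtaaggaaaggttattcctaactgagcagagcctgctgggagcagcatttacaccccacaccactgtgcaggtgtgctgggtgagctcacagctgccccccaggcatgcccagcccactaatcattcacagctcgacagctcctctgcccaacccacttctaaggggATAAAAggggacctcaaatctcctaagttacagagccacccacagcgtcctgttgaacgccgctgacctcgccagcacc
Krt8, chr15:102004293-102004592, minus strand: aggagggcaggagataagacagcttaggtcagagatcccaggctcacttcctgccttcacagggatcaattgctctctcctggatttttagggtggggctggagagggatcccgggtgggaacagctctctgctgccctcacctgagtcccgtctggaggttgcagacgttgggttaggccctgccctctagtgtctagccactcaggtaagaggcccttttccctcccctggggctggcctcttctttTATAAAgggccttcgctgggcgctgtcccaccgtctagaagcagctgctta
Krt18, chr15:102027966-102028265, plus strand: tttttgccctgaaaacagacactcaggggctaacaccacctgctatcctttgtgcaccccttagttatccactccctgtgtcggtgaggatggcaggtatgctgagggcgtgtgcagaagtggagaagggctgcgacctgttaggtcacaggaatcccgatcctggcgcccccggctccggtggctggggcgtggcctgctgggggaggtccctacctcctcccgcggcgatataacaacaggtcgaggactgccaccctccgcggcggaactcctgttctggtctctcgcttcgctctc
Krt20, chr11:99438104-99438403, minus strand: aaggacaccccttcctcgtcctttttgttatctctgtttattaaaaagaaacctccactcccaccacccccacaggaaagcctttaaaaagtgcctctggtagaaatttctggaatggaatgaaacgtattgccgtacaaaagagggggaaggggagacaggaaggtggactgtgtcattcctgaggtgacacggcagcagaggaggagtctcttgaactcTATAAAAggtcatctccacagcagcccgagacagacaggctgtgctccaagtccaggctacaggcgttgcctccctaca

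TATAAA, on either strand, was in 2 of the 7 member windows (Krt8 and Krt20) and in 13.6% of all 32851 windows of this length. ATAAAA, which can overlap it, was in 5 of 7 (Krt5, Krt13, Krt7, Krt8 and Krt20) and in 18.5% of all windows. ATAAAA began 29 bases before the RefSeq start in Krt5 and in Krt13, 28 before it in Krt20 and 7 before it in Krt7. In Krt20 it is the end of the longer run TATAAAA, which begins 1 base earlier. In Krt8, TATAAA began 1 base before the RefSeq start. The runs of Krt7 and Krt8 lie inside the gene as GENCODE places it. Krt18, the most abundant keratin per length, held neither in this window. The letters TGANTCA, the core bound by AP-1 factors, were in 1 of 7 windows and in 7.81% of all, and GGGCGG, bound by Sp1, in 1 of 7 and in 35.7%. These are matches of letters, not mapped sites.

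In OMD-/- bladder, Krt15 and Krt18 rose and no keratin fell (edgeR quasi-likelihood fit over 16647 genes, adjusted by Benjamini-Hochberg). These 2 of 9 tested members compare with 29.4% of all tested genes that passed in either direction, and 14.3% that passed higher, so the share of keratins called was near the background. Krt14 had too few reads to be tested. The median log2 fold change of the 9 keratins was 0.25, and that of all tested genes was -0.000274.

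Of the basal keratins, Krt15 (chr11:100131758-100135928), a type I keratin of basal cells, was at 1556, 1519, 1282 and 1322 CPM in WT replicates 1 to 4 and at 2307, 1664 and 1676 CPM in OMD-/- replicates 1 to 3. Every OMD-/- library was above every WT library, and replicate 1 stood well above the other two. Its mean rose from 1420 ± 138 to 1882 ± 368 CPM, which is 0.40 on the log2 scale (SE 0.13, 95% interval 0.13 to 0.68, edgeR adjusted p = 0.0329). Krt5, the type II keratin of basal cells, was at 1102, 1105, 773 and 830 CPM in WT and 1627, 1108 and 1110 CPM in OMD-/-. The groups did not overlap, but OMD-/- replicates 2 and 3 lay just above WT replicates 1 and 2. Its log2 fold change of 0.43 (SE 0.17) did not pass (edgeR adjusted p = 0.0788). Krt14 counted 10, 2 and 10 reads in OMD-/-, within or below its range in WT.

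Of the simple keratins, Krt18, the type I partner of Krt8, was at 1518, 1555, 1659 and 1563 CPM in WT and 2367, 1788 and 1855 CPM in OMD-/-. All 3 OMD-/- libraries were above all 4 of WT. Its mean rose from 1574 ± 59.9 to 2003 ± 317 CPM, which is 0.35 on the log2 scale (SE 0.11, 95% interval 0.11 to 0.58, edgeR adjusted p = 0.0312). Krt8 itself was at 860, 855, 974 and 906 CPM in WT and 1227, 947 and 970 CPM in OMD-/-, so that the groups overlapped. Its log2 fold change was 0.22 (SE 0.11, edgeR adjusted p = 0.142). Krt7 (chr15:101411043-101430313), a type II keratin found through the urothelium, was at 1932, 2010, 1969 and 1988 CPM in WT, the narrowest spread of the members in that group relative to its mean, and at 2687, 2174 and 2176 CPM in OMD-/-. The groups did not overlap, and the log2 fold change of 0.25 (SE 0.10) did not pass (edgeR adjusted p = 0.0757). Krt19 (chr11:100140810-100148665), the smallest type I keratin, was at 1153, 1161, 939 and 942 CPM in WT and 1484, 1144 and 1145 CPM in OMD-/-. These overlapped, with a log2 fold change of 0.26 (edgeR adjusted p = 0.128).

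Of the intermediate keratins, Krt4 (chr15:101918535-101924735) was at 302, 308, 280 and 277 CPM in WT and 322, 228 and 234 CPM in OMD-/-. OMD-/- replicates 2 and 3 lay below all WT libraries and replicate 1 above them, and the log2 fold change was -0.16 (SE 0.12, edgeR adjusted p = 0.320). Krt13 (chr11:100117327-100121566) stayed at 9 to 23 reads in OMD-/-, with a log2 fold change of 0.14 and an edgeR adjusted p of 0.823. Krt20, the umbrella cell keratin, was at 219, 205, 230 and 215 CPM in WT and 245, 236 and 243 CPM in OMD-/-. All 3 OMD-/- libraries were above WT by a small margin, and the log2 fold change of 0.15 (SE 0.08) did not pass (edgeR adjusted p = 0.163). In all, 5 keratins (Krt5, Krt15, Krt7, Krt18 and Krt20) had every OMD-/- library above every WT library, where 19.2% of all tested genes did.

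The calls in OMD-/- depended on single libraries. Without OMD-/- replicate 1, Krt15 fell short (log2 0.25, edgeR adjusted p = 0.0805), where 25.5% of all genes passed. Krt18 passed as higher by a narrow margin (0.22, edgeR adjusted p = 0.04998), and Krt4 passed as lower (-0.32, edgeR adjusted p = 0.0179). No keratin passed without WT replicate 2, 3 or 4, where 4781 of 16398, 3774 of 16366 and 4171 of 16378 genes did. In these fits Krt15 stood at log2 0.44, 0.36 and 0.37 and Krt18 at 0.34, 0.37 and 0.34. Only Krt15 passed without WT replicate 1 (4850 of 16415 genes) or without OMD-/- replicate 3 (2951 of 17183 genes). Scaled to 20 pan-epithelial genes instead of to all genes, which moved the median of all genes to -0.12, Krt15 (0.27, edgeR adjusted p = 0.0542) and Krt18 (0.22, adjusted p = 0.0744) fell short and Krt4 passed as lower (-0.29, adjusted p = 0.0343), where 27.6% of all genes passed. Among libraries with under 2 CPM on Y chromosome genes, which are WT 3 and 4 and OMD-/- 2 and 3, a choice made after the data were seen, 6 of 10 keratins passed by edgeR against 53.7% of all genes: Krt5, Krt15, Krt7, Krt18 and Krt19 higher and Krt4 lower. Xist counted 23019 and 27694 reads in WT 3 and 4 but 2094 and 1677 in OMD-/- 2 and 3, so this choice does not match the groups for sex. These 4 libraries are also 2 of the close pairs, whose spread within a pair was small. With the close pairs summed into 1 library each no keratin passed (edgeR, 9.06% of all genes). That fit has 2 libraries on each side, and its log2 fold changes were 0.50 for Krt15 and 0.43 for Krt18, above those with all libraries.

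In PRELP-/- bladder, 9 of the 10 keratins had a positive log2 fold change against WT, and none passed the same edgeR test, where 7.29% of 16581 tested genes did and 1.40% passed as higher. At an unadjusted p under 0.05 there were 5 keratins (Krt5, Krt14, Krt15, Krt18 and Krt19), against 26.7% of all tested genes, and DESeq2's Wald test called 5 (Krt5, Krt14, Krt15, Krt7 and Krt18), against 17.6% of all genes. Every PRELP-/- library stood above every WT library for 6 keratins (Krt5, Krt15, Krt7, Krt8, Krt18 and Krt19), where 13.6% of all tested genes did. The median log2 fold change of the 10 keratins was 0.44, and that of all tested genes 0.02. Both knockouts were compared with the same WT libraries.

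Krt5 was at 2053, 1369 and 1332 CPM in PRELP-/- replicates 1 to 3, all above the highest WT library (1105 CPM), with a log2 fold change of 0.71 (SE 0.22, 95% interval 0.20 to 1.22, edgeR adjusted p = 0.0897). Krt15 was at 2480, 1857 and 1810 CPM, again all above WT (0.51, SE 0.18, edgeR adjusted p = 0.122). In both genes replicates 2 and 3 were close together and replicate 1 stood apart from them. Krt14 counted 115, 24 and 3 reads, or 6.53, 0.962 and 0.138 CPM against 0.306 to 0.576 in WT. Replicate 1 was far above WT, replicate 2 above it by less and replicate 3 below it, and the log2 fold change of 2.29 (SE 0.88) had an edgeR adjusted p of 0.142. Without replicate 1 it was 0.32 (SE 0.59).

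Krt18 was at 3477, 2158 and 2068 CPM in PRELP-/-, with a log2 fold change of 0.68 (SE 0.21, 95% interval 0.21 to 1.16, edgeR adjusted p = 0.0857). Krt19 was at 2118, 1271 and 1242 CPM (0.53, SE 0.22, edgeR adjusted p = 0.171). Both stood above WT in all 3 libraries, and replicate 1 held more than the other 2 by a wide margin. Krt7 was at 2963, 2465 and 2333 CPM (0.37, SE 0.16, edgeR adjusted p = 0.188). Krt8 was at 1234, 1067 and 1034 CPM (0.29, SE 0.15, edgeR adjusted p = 0.260). For these type II keratins the groups again did not overlap.

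Krt4 and Krt20 did not follow. Krt4 was at 362, 304 and 287 CPM in PRELP-/-, with replicates 2 and 3 inside the WT range (0.10, SE 0.14, edgeR adjusted p = 0.678). Scaled to the pan-epithelial genes its log2 fold change turned to -0.025. Krt20 was at 147, 239 and 229 CPM, so that replicate 1 was the lowest library of all 10 and replicate 2 above WT, with a log2 fold change of -0.10 (SE 0.19, edgeR adjusted p = 0.772). Krt13 stayed at 6 to 22 reads (0.18, SE 0.45, edgeR adjusted p = 0.832).

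**Figure D2:**
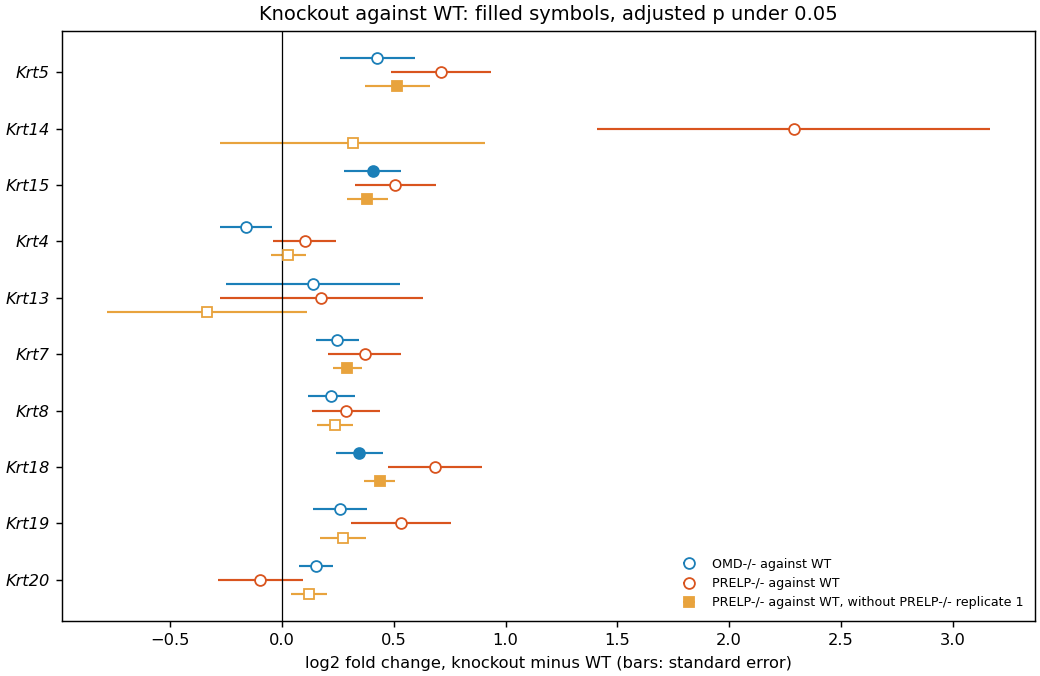
Log2 fold change of each keratin, knockout minus WT, with its standard error from edgeR's quasi-likelihood fit, in OMD-/- (blue), PRELP-/- (red) and PRELP-/- without its replicate 1 (yellow squares). Filled symbols have an adjusted p under 0.05: Krt15 and Krt18 in OMD-/-, none in PRELP-/- with all libraries, and Krt5, Krt15, Krt7 and Krt18 without replicate 1. Krt14 was not tested in OMD-/-.

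PRELP-/- replicate 1 carried much of the spread. Without it, 4 keratins passed as higher by edgeR, against 22.2% of all genes: Krt18 at 0.44 on the log2 scale (SE 0.07, adjusted p = 0.00404), Krt7 at 0.29 (SE 0.07, adjusted p = 0.0154), Krt15 at 0.38 (SE 0.09, adjusted p = 0.0201) and Krt5 at 0.52 (SE 0.15, adjusted p = 0.0379). Their fold changes were smaller than with replicate 1, and Krt20 turned to 0.12 (edgeR adjusted p = 0.321). The 2 libraries left are a close pair, and with close pairs summed no keratin passed (0.0709% of all genes). Without PRELP-/- replicate 3 only Krt14 passed (edgeR adjusted p = 0.0488, 3.11% of all genes).

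**Figure D3:**
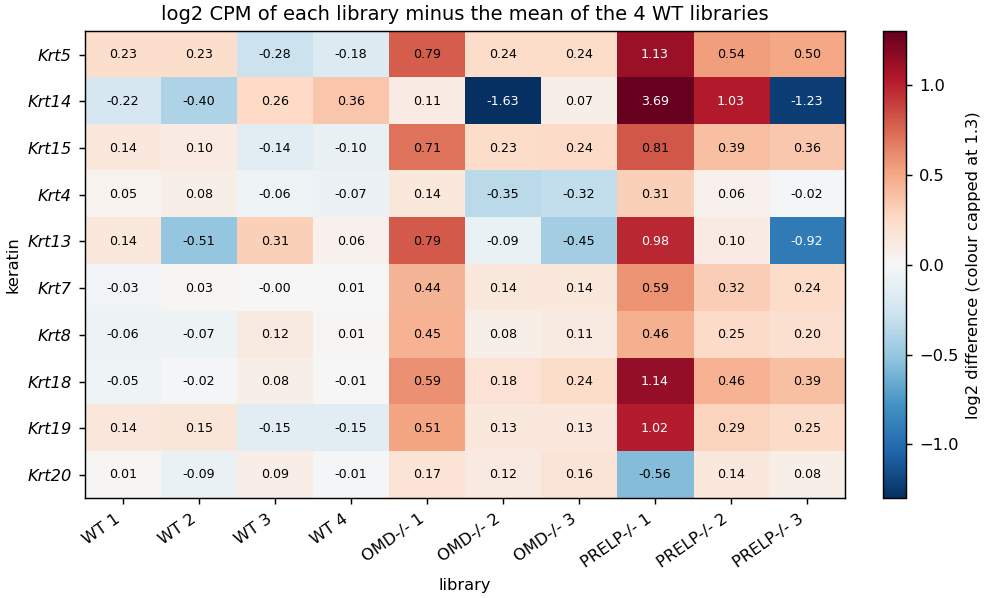
Log2 CPM of each keratin (rows) in each library (columns), minus the mean of the 4 WT libraries, with the value in each cell and colour capped at 1.3. OMD-/- replicate 1 and PRELP-/- replicate 1 were the highest library of their group for Krt5, Krt15, Krt4, Krt13, Krt7, Krt8, Krt18 and Krt19, and Krt20 in PRELP-/- replicate 1 was 0.56 below the WT mean.

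None of the 10 keratins passed in edgeR between PRELP-/- and OMD-/- (adjusted p 0.690 to 0.974) where 1 of 15805 genes did (0.00633%), nor did any with either group's replicate 1 left out. None had an unadjusted p under 0.05, where 4.51% of all genes did, DESeq2's Wald test called none, and no keratin had groups that did not overlap, where 15.1% of all genes did. The intervals were wide. The log2 fold change, PRELP-/- minus OMD-/-, was 0.35 for Krt18 (95% interval -0.27 to 0.97), 0.30 for Krt5 (-0.31 to 0.91), 0.27 for Krt4 (-0.17 to 0.71) and -0.24 for Krt20 (-0.74 to 0.27). Libraries of the same number were also set side by side in this comparison. The labels give no such pairing, it rests on weak correlations in these data, and the main fit did not use it. The values by pair are a description only. By pair, the log2 CPM difference, PRELP-/- minus OMD-/-, was 0.34, 0.31 and 0.26 for Krt5 in pairs 1 to 3 and 0.17, 0.41 and 0.29 for Krt4. It was above 0 in 3 of 3 pairs for 7 keratins (Krt5, Krt15, Krt4, Krt7, Krt8, Krt18 and Krt19), where 22.6% of all tested genes were. For Krt20 it was -0.74, 0.019 and -0.085. The edgeR fit with a replicate block called none of the 10 (adjusted p 0.503 to 0.992), where 43 of 15805 genes passed. Limma-voom with quality weights called Krt4 as higher in PRELP-/- (log2 0.31, adjusted p = 0.0382), where 1012 of 15805 genes passed.

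Ratios within a library do not depend on how libraries are scaled to each other, and they are given as descriptions without a test. The type II keratins summed per length to 0.507, 0.512, 0.503 and 0.510 of the type I keratins in WT, to 0.489, 0.480 and 0.476 in OMD-/- and to 0.427, 0.494 and 0.492 in PRELP-/-. All 6 knockout libraries were below all 4 WT libraries, and with principal transcript lengths they were as well (0.464 to 0.543 against 0.552 to 0.565). Krt18 stood at 2.41, 2.48, 2.32 and 2.35 times Krt8 in WT, 2.63, 2.57 and 2.60 times in OMD-/- and 3.84, 2.75 and 2.73 times in PRELP-/-. Here too no knockout library overlapped WT, although both genes encode partners of the same filament. Krt18 is also part of the type I sum, so this ratio and the one before it are not independent. How often ratios of other genes separate the groups in this way was not counted.

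The ratios of Krt4 and of Krt5 to Krt8 were not among those planned. Krt4 over Krt8 was 0.322, 0.331, 0.264 and 0.281 in WT and lower in each OMD-/- library, at 0.241, 0.221 and 0.221, while PRELP-/- at 0.269, 0.261 and 0.255 reached into the WT range. Basal over umbrella keratin, as Krt5 over Krt20, was 4.42, 4.74, 2.94 and 3.39 in WT, 5.83, 4.12 and 4.00 in OMD-/- and 12.3, 5.03 and 5.09 in PRELP-/-. OMD-/- overlapped WT in this ratio and PRELP-/- did not. The basal keratins made up 28.6% to 34.3% of the keratin sum per length in WT, 33.02% to 35.4% in OMD-/- and 32.5% to 33.6% in PRELP-/-.

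WT itself was split. Krt5 over Krt8 was 1.14 and 1.15 in WT replicates 1 and 2 and 0.707 and 0.817 in replicates 3 and 4, the same pairs that differed in Y chromosome genes, in Xist and in smooth muscle markers. Krt15, Krt19 and Krt4 were also higher in WT 1 and 2 than in WT 3 and 4, Krt8 and Krt18 were higher in WT 3 and 4, the latter narrowly, and Krt7 and Krt20 did not divide this way. With 2 libraries on each side these differences were not tested.

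**Figure D4:**
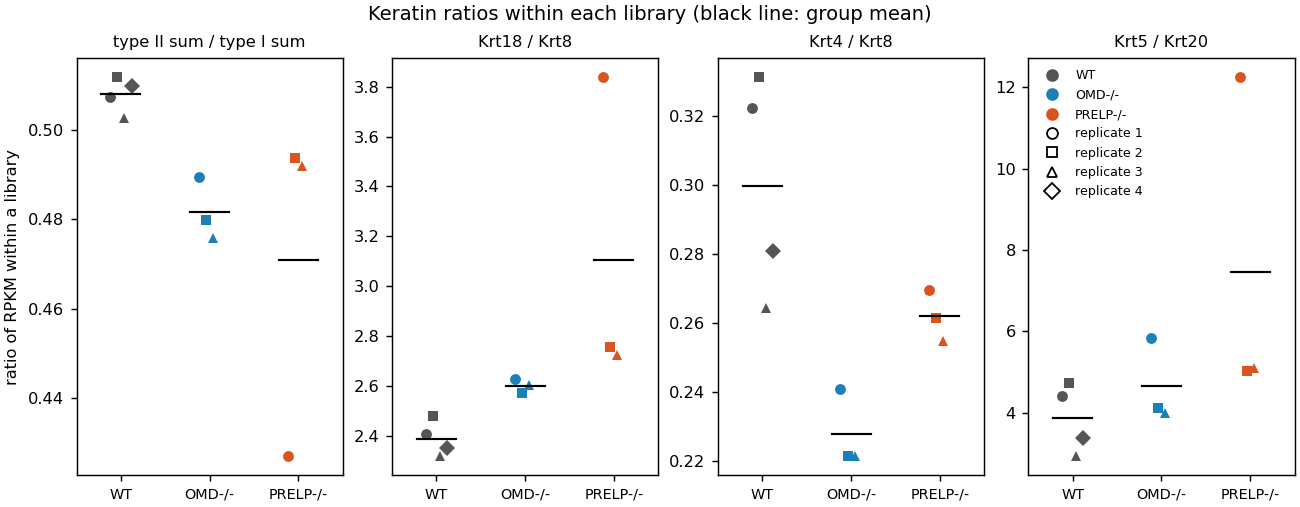
Ratios of RPKM within each library: type II sum over type I sum, Krt18 over Krt8, Krt4 over Krt8 and Krt5 over Krt20, with the group mean as a black line. The axes do not start at 0. All knockout libraries lay below WT in the first and above WT in the second, and PRELP-/- replicate 1 was farthest from WT in both.

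Across the 10 libraries, after each group's mean was taken off, most members varied together, as a description over libraries that share depth and include the close pairs. Pearson's r was 0.98 for Krt5 with Krt15, 0.95 for Krt5 with Krt19 and 0.94 for Krt7 with Krt18. Without PRELP-/- replicate 1 these were 0.97, 0.96 and 0.92. Krt20 had a negative r with each of the other 9, from -0.37 with Krt8 to -0.83 with Krt19, and without PRELP-/- replicate 1 from -0.02 to -0.61. Among 14457 genes of at least 1 CPM, the 3 most like Krt5 were Cyb5b (r = 0.99), Vegfb (0.99) and Mycl (0.99), those most like Krt8 were Dhcr7 (0.98), Tnni2 (0.97) and Upk2 (0.97), and those most like Krt20 were Gne (0.995), Plekhd1 (0.99) and Esyt3 (0.99). For Krt13, at 6 to 33 reads, they were 2010001A14Rik (0.99), Ppcdc (0.97) and Zswim3 (0.97).

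The other markers of each layer did not move as one with its keratins. Of 10 basal cell markers, 3 passed as higher in OMD-/- by edgeR, the hyaluronan receptor Cd44 (log2 0.51, adjusted p = 0.00195), the basement membrane laminin chain Lamb3 (0.36, 0.0179) and the integrin Itga6 (0.37, 0.0219). Dst, whose products include the hemidesmosome plakin that ties keratin filaments to the membrane, passed as lower (-0.76, edgeR adjusted p = 0.00140). Counts are per gene in homogenised bladder, and which cells or transcripts this came from was not tested. The 4 called of 10 stand beside 29.4% of all tested genes. The median of the list was -0.05. In PRELP-/- none of the 10 passed, where 7.29% of all tested genes did. In PRELP-/- replicate 1, where Krt5 and Krt15 were highest, the summed basal markers were the lowest of all libraries, at 1036 CPM against 1568 to 1895 elsewhere. Dst was the largest single part of this sum in WT, with a mean of 628 CPM against 279 in PRELP-/-, and the sum was not taken without it. Of the 10 markers, 4 had a positive log2 fold change in PRELP-/-, and the median was -0.07.

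Of 8 umbrella cell markers, the uroplakins Upk2 (0.52, edgeR adjusted p = 0.00654) and Upk1a (0.45, 0.0171) passed as higher in OMD-/- and the gasdermin Gsdmc2 as lower (-1.36, 0.0356), which is 3 of 8 beside 29.4% of all tested genes. In PRELP-/- Upk2 passed as higher (0.68, edgeR adjusted p = 0.0477) and Gsdmc2 as lower (-1.67, 0.0365), which is 2 of 8 beside 7.29%. The list summed to 8582 to 10746 CPM in WT, 10845 to 14703 in OMD-/- and 12275 to 21826 in PRELP-/-. The highest of these sums was in PRELP-/- replicate 1, the library with the lowest Krt20.

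**Figure D5:**
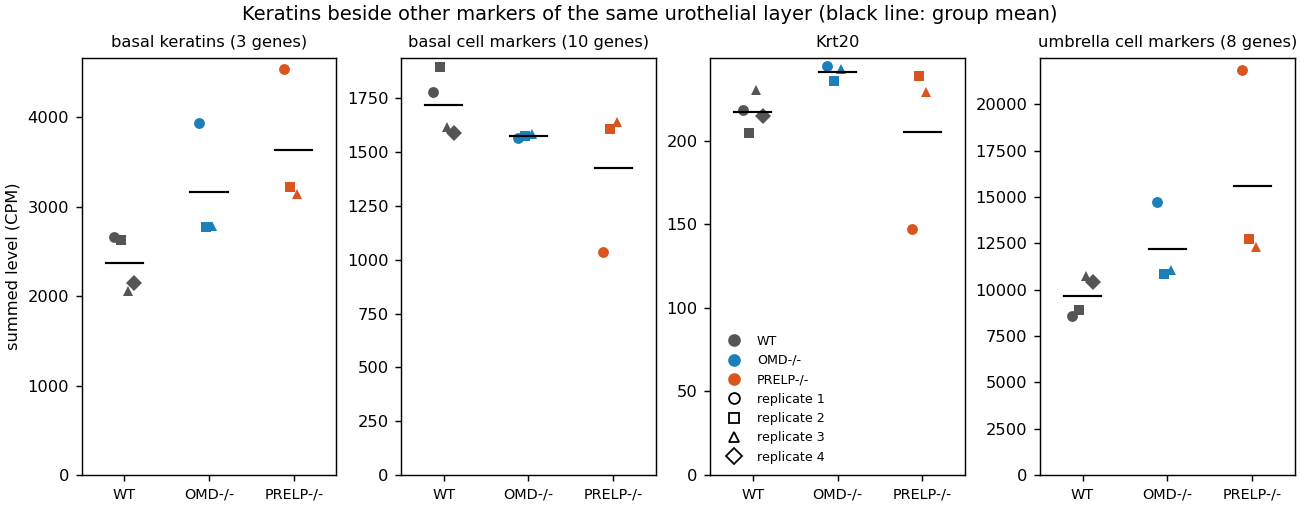
Summed CPM in each library of the basal keratins (Krt5, Krt14, Krt15), of 10 other basal cell markers, of Krt20 and of 8 other umbrella cell markers, with the group mean as a black line. PRELP-/- replicate 1 was highest for the basal keratins (4540 CPM) and the umbrella markers (21826 CPM) and lowest for the basal markers (1036 CPM) and Krt20 (147 CPM). Dst was the largest single part of the basal marker sum in WT.

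Of 20 pan-epithelial genes, 3 passed as higher in OMD-/- and 3 as lower by edgeR, with a median log2 fold change of 0.01. These 6 of 20 were at the background, since 29.4% of all tested genes passed. Those with the smallest p were the splicing regulator Esrp2 (-0.50, adjusted p = 0.00142), the membrane protein gene Prom2 (0.42, 0.00500), the epithelial transcription factor Grhl1 (-0.31, 0.00881) and E-cadherin, Cdh1 (0.40, 0.00968). None passed in PRELP-/-. The list summed to 4811 to 5108 CPM in WT, 5064 to 5899 in OMD-/- and 5153 to 5721 in PRELP-/-, whereas the 10 keratins summed to 8045 to 8718, 9289 to 12268 and 10335 to 14843 CPM.

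Of 17 genes whose proteins anchor keratin filaments at desmosomes and hemidesmosomes, 16 were tested in OMD-/-. The desmosomal cadherin Dsg2 (0.33, edgeR adjusted p = 0.00784) and Itga6 passed as higher and Dst as lower, 3 of 16 against 29.4% of all tested genes. None passed in PRELP-/-. Of 16 transcription factors and related regulators of epithelial keratin genes, Elf3 (0.31, edgeR adjusted p = 0.0341) passed as higher in OMD-/- and Klf5 (-0.29, 0.0217) and Grhl2 (-0.39, 0.0493) as lower, again 3 of 16 against 29.4%, and none passed in PRELP-/-. Both shares were below that of all tested genes, and 7.29% of all genes passed in PRELP-/-.

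The 43 other keratin genes of the annotation were low. Of these, 12 had no read in any library and 19 passed 3 reads in at least 1. In OMD-/-, 9 were tested, and Krt10, a type I keratin of cornifying epidermis, passed as lower, from 9.99 to 6.16 CPM (log2 -0.70, edgeR adjusted p = 0.0271), 1 of 9 against 29.4% of all tested genes. None of 9 tested passed in PRELP-/-. Of 16 markers of squamous differentiation, 7 were tested in each knockout, and Lor, which encodes loricrin of the cornified envelope, passed as higher in OMD-/- (1.19, edgeR adjusted p = 0.00933) at 0.905 CPM in WT and 2.19 in OMD-/-. Krt10, also on that list, was the other of its 2 called genes and passed as lower, as given above. Between the knockouts none of these lists had a gene that passed.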

How the data were processed

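Bladder RNA was made into poly(A)-selected, dUTP strand-marked libraries, per the labels. The authors deposited whole-number read counts per gene for 10 libraries. The file headers carry HISAT2 names, while the submitters' processing notes list bcl2fastq, STAR 2.5.2b, featureCounts and DESeq2, with the builds GRCm38 and hg38. The strand setting, the use of molecular identifiers and the annotation were not given in the sources used here. All 55536 gene identifiers matched GENCODE vM21 (GRCm38). The deposited DESeq2 tables hold the authors' fold changes and p-values and were not used.

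Counts of the 2 groups compared were filtered with filterByExpr, scaled by TMM and fitted with edgeR 4.0.16 (R 4.3.3) by the robust quasi-likelihood test, two-sided, with Benjamini-Hochberg adjustment over all tested genes, a threshold of 0.05 and a prior count of 2. CPM and RPKM use TMM-scaled totals over all 10 libraries, and RPKM the union of annotated exons. SDs are across libraries. DESeq2 1.42.0 and limma 3.58.1 served as alternatives, with other scalings, no filter, all 3 groups in one fit, a Y chromosome covariate, a replicate block and the omission of each library. The scripts were tested on simulated data. The smallest depth, 20391437 reads, puts 3 reads at 0.133 CPM, and counting error alone is covered by such a floor.

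To check whether replicate numbers pair libraries, each library's distance from its group mean was correlated with that of the same number elsewhere. PRELP-/- and OMD-/- libraries of the same number gave r of 0.30, 0.18 and 0.15. They were set side by side on that ground, which comes from the data and not from the labels. These values are weak, and replicate 2 of PRELP-/- against WT gave 0.14. PRELP-/- replicates 2 and 3 were closer to OMD-/- replicate 1 (mean chi-square per gene 13.1 and 17.5) than to the OMD-/- library of their own number (23.9 and 23.2). The pairing is therefore not established, and the main fit did not use it. A replicate block in PRELP-/- against OMD-/- called 43 genes instead of 1 and none of the 10 keratins.

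The members and lists were chosen with earlier results of these data known. Named were the 10 keratins, any other keratin that passed, up to 4 called genes with the smallest p in each list, and the 3 genes most like Krt5, Krt13, Krt8 and Krt20 in within-group deviations of log2 CPM. Endothelial markers (10 genes) summed to 252 to 549 CPM in WT, 598 to 686 in OMD-/- and 440 to 672 in PRELP-/-, mesothelial markers (10 genes) to 534 to 653, 706 to 927 and 753 to 1199, of which 4 in OMD-/- and 5 in PRELP-/- were at 3 reads or fewer, and male accessory gland markers (10 genes) to under 1 CPM in every library. Most of the mesothelial sum came from Upk3b, which is also on the umbrella cell list, so the sum does not measure mesothelium alone. Mean Upk3b was 533 (WT), 657 (OMD-/-) and 784 CPM (PRELP-/-). Of the other tested mesothelial genes, Igfbp6 passed as higher by edgeR in both knockouts, and Gpm6a and Cldn15 passed in neither.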

Additional observations from a re-analysis of the deposited data

How the results depend on the processing

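Of the log2 fold changes of single keratins, 119 of 153 values over 17 alternatives kept their direction and their side of the threshold in OMD-/- against WT, 137 of 160 over 16 in PRELP-/- against WT and 134 of 150 over 15 in PRELP-/- against OMD-/-. Most of these values belong to keratins that the main fit did not call. The 17 values that lost a call in OMD-/- against WT were all of Krt15 or Krt18, the only 2 keratins called there. In OMD-/- against WT the count of keratins called was 1 when scaled to pan-epithelial genes (27.6% of all genes passed). It was 4 by DESeq2's Wald test (5414 of 16644 genes). Limma-voom with quality weights called 5, of which 4 were higher and 1 lower (7228 of 16647 genes). With all 3 groups in one fit the count was 0 (2485 of 16912 genes), and with a Y chromosome covariate it was 5 (6317 of 16647 genes). It was 0 to 2 when a library was left out. In the libraries with under 2 CPM on Y chromosome genes it was 6 (53.7% of all genes), and with close pairs summed it was 0 (9.06%). The last 2, and the principal transcript lengths, were added after the data were seen. In PRELP-/- against WT the count was 5 by DESeq2 (17.6% of all genes passed) and 5 by limma-voom (6973 of 16581 genes). It was 2 with all 3 groups in one fit (Krt5 and Krt18, where 2485 of 16912 genes passed) and 0 to 4 when a library was left out. In PRELP-/- against OMD-/- it was 1 by limma-voom (Krt4, log2 0.31, adjusted p = 0.0382), where 1012 of 15805 genes passed. It was 0 whichever library was left out. The cause of these changes was not tested.

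The replicate block called 0 keratins in OMD-/- against WT, where 3516 of 16647 genes passed. Krt15 stood at 0.36 (edgeR adjusted p = 0.0692) and Krt18 at 0.34 (edgeR adjusted p = 0.102). In that comparison the numbers only name libraries (r of 0.041, -0.044 and 0.024). The block changed no other keratin call.

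Directions turned in the following cases, none of them past the threshold. Krt13 against WT was -0.28 in OMD-/- by limma-voom, -0.44 in the libraries low in Y chromosome genes and -0.28 to 0.38 when a library was left out. In PRELP-/- against WT, limma-voom gave -0.0245 for Krt14, -0.45 for Krt13 and 0.077 for Krt20, pan-epithelial scaling gave -0.0255 for Krt4, and leaving out a library gave -0.34 to 0.54 for Krt13 and -0.22 to 0.12 for Krt20. In PRELP-/- against OMD-/-, limma-voom gave -0.20 for Krt13, and leaving out a library gave -0.47 to 0.46 for Krt13 and -0.0357 to 0.28 for Krt15. There the Y chromosome covariate gave -0.29 for Krt5, -0.27 for Krt14, -0.33 for Krt15, -0.11 for Krt4, -1.12 for Krt13, -0.16 for Krt7, -0.21 for Krt8, -0.21 for Krt18, -0.29 for Krt19 and 0.022 for Krt20, each with an adjusted p of 0.9998. At 2 to 33 reads outside PRELP-/- replicate 1, Krt13 and Krt14 differences are limited by depth.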
